A study of Rattus norvegicus with 18 samples.

Results

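Proteasome genes of the rat retina were examined in 6 groups of arrays. Members were all probe sets, the array's groups of short probes against 1 transcript, whose gene symbol begins with Psma, Psmb, Psmc, Psmd or Psme followed by a digit. They numbered 52 probe sets for 44 genes, of 14506 genes that the platform table names by a single symbol. For the 8 genes with 2 probe sets the brighter was used. Of the 44 genes, 42 encode subunits, assembly chaperones or activators of the proteasome and 2 (Psmc3ip and Psme3ip1) share only the name. The 5 immunoproteasome genes (Psmb8, Psmb9, Psmb10, Psme1 and Psme2) were set against the 34 constitutive subunit and chaperone genes.

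Retinal RNA came from adult Sprague Dawley rats, an albino strain, aged 80 to 120 postnatal days and reared in 5 lux cyclic light. Control rats had no further treatment. The saffron group was fed the spice for 3 weeks at a daily dose of 1 mg/kg, and the photobiomodulation (PBM) group was held under a red light source for 3 min a day on 5 days. The light damage (LD) group was exposed to white light for 24 h, and the SafLD and PBMLD groups received the same exposure after saffron or PBM. The intensity is 1000 lux in the descriptions of all 3 light groups but 100 lux in the source name of the LD arrays, where the study's methods give the higher intensity. All animals were fed the same vegetable matrix, which also carried the saffron. Each group had 3 arrays, described as biological replicates, so each mean below has n = 3. The study's methods put both males and females in every group, with more animals than arrays. The labels do not give the sex of the animal behind an array, so sex could not be taken into account. The limma p-values rest on the spread between retinas within a group, pooled over all 6 groups. Values are log2 intensities, differences are given ± SE from limma unless stated otherwise, and on this scale a difference of 1 is a 2-fold change. The retina is a mixed tissue, and in such RNA fewer cells of a type cannot be told apart from less RNA per cell. The design asks whether light damage, and light damage after either pretreatment, changed these transcripts.

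The proteasome is the barrel-shaped protease that degrades proteins tagged with ubiquitin. Its core is built of outer rings of alpha subunits (Psma genes), which gate the entrance, and inner rings of beta subunits (Psmb genes), of which Psmb6, Psmb7 and Psmb5 carry the peptide-cutting sites. A regulatory particle of ATPases (Psmc genes) and non-ATPase subunits (Psmd genes) binds tagged proteins, removes the ubiquitin and threads the chain into the core. Interferon-gamma is known to induce the alternative catalytic subunits Psmb9, Psmb10 and Psmb8, which replace Psmb6, Psmb7 and Psmb5 in new cores to make the immunoproteasome, and the PA28 activator subunits Psme1 and Psme2. Peptides cut this way are carried by the Tap1 and Tap2 transporter to major histocompatibility complex class I molecules. In photoreceptors, which renew their outer segments daily, the proteasome clears misfolded visual proteins.

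The promoters of the genes on which the contrast turns are shown because several hold the letters to which interferon-regulated factors are known to bind. Each sequence is the 250 bases before the RefSeq gene start in the GRCr8 assembly, written 5′ to 3′ on the strand of the gene. Capitals mark matches to 1 of 4 patterns searched on both strands: GAAA-NN-GAAA (core of the interferon-stimulated response element), TTCNNNGAA (interferon-gamma activated site), GGGA-N-TTTCC (kappa B site) and TGACNNNGC (antioxidant response element core), where N is any base. Tap1 is shown as the neighbour that shares a promoter region with Psmb9.
Psmb9, chr20:4668750-4668999, plus strand: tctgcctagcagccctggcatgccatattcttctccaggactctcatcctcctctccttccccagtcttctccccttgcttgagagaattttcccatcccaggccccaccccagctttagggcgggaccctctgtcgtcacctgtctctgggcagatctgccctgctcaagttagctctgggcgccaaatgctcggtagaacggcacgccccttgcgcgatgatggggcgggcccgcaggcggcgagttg
Tap1, chr20:4668544-4668793, minus strand: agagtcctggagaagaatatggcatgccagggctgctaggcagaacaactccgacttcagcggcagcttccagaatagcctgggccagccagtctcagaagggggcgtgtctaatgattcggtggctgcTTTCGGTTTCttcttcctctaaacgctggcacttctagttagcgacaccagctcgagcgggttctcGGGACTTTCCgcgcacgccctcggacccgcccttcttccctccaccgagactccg
Psmb8, chr20:4657032-4657281, minus strand: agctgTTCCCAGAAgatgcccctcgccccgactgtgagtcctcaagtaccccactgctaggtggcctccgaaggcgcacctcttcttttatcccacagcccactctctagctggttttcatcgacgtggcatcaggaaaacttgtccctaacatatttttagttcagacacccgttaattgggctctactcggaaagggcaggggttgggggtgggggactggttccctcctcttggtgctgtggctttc
Psmb10, chr19:50743293-50743542, minus strand: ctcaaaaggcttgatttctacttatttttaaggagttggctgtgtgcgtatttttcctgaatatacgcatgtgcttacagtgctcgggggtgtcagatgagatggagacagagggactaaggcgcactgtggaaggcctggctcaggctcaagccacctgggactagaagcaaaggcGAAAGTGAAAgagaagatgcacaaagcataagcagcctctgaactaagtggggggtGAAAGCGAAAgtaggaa
Psme2, chr15:33052752-33053001, minus strand: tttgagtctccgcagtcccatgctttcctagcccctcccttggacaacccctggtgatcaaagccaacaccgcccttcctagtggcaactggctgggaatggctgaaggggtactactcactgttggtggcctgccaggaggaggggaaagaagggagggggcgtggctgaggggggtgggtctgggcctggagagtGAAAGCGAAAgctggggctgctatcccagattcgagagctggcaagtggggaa
Psmb5, chr15:32047380-32047629, minus strand: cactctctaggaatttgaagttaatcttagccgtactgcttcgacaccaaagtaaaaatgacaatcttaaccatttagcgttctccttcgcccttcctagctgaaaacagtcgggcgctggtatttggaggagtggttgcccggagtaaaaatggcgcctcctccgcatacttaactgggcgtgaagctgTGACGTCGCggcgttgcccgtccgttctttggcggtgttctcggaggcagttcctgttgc
Psmb6, chr10:55737638-55737887, plus strand: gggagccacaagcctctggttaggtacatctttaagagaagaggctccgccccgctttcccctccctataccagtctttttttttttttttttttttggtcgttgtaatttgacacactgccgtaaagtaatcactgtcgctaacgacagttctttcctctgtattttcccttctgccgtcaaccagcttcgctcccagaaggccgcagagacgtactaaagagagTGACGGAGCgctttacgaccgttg

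Psmb10 held the interferon-stimulated core at 73 to 64 and at 17 to 8 bases before its start, and Psme2 held it at 53 to 44 bases. Psmb8 held an interferon-gamma activated site. The Psmb9 window held none of the 4 patterns, but the Tap1 window, which runs the other way and shares 44 bases with it, held the interferon-stimulated core at 121 to 112 bases and the kappa B site at 55 to 46 bases before the Tap1 start. That interferon-stimulated core lay 336 bases from the Psmb9 start. Psmb5 and Psmb6 each held the antioxidant response core. The windows of Psme1 and Psmb7, not printed, held none of the 4 patterns.
Over 39 members with a promoter in the table, 5 held the interferon-stimulated core (Psma4, Psmb3, Psmb10, Psmd7 and Psme2), against 3.41% of the 33469 promoters searched. The interferon-gamma activated site was in 4 members (7.67% of all promoters), the kappa B site in 0 members (0.314%) and the antioxidant response core in 7 members (10.1%). The patterns may overlap in part. A match describes these letters and is no evidence that a factor binds there.

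Of the 44 members, 42 were brighter than the median probe set, and Psmb11 and Psmb8 were the exceptions. Rod and other retinal markers were bright on every array, with a mean over 6 retinal marker genes of 11.28 to 12.01. Array medians lay between 6.12 and 6.19, and no arrays held identical values. Within a group, however, the proteasome genes of an array tended to move together. Control 3 lay above its group mean for 28 of the 34 constitutive genes, PBMLD 2 for 28, SafLD 1 for 30, PBM 3 for 29 and saffron 2 for 26. At the other end, PBMLD 1 lay above its group mean for 3 of them. The share of all probe sets above the group mean on these arrays was not computed. Whether the shifts are particular to proteasome genes was therefore not tested. Several list medians below are also given without single arrays. The heat map by array shows these columns.

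**Figure D1:**
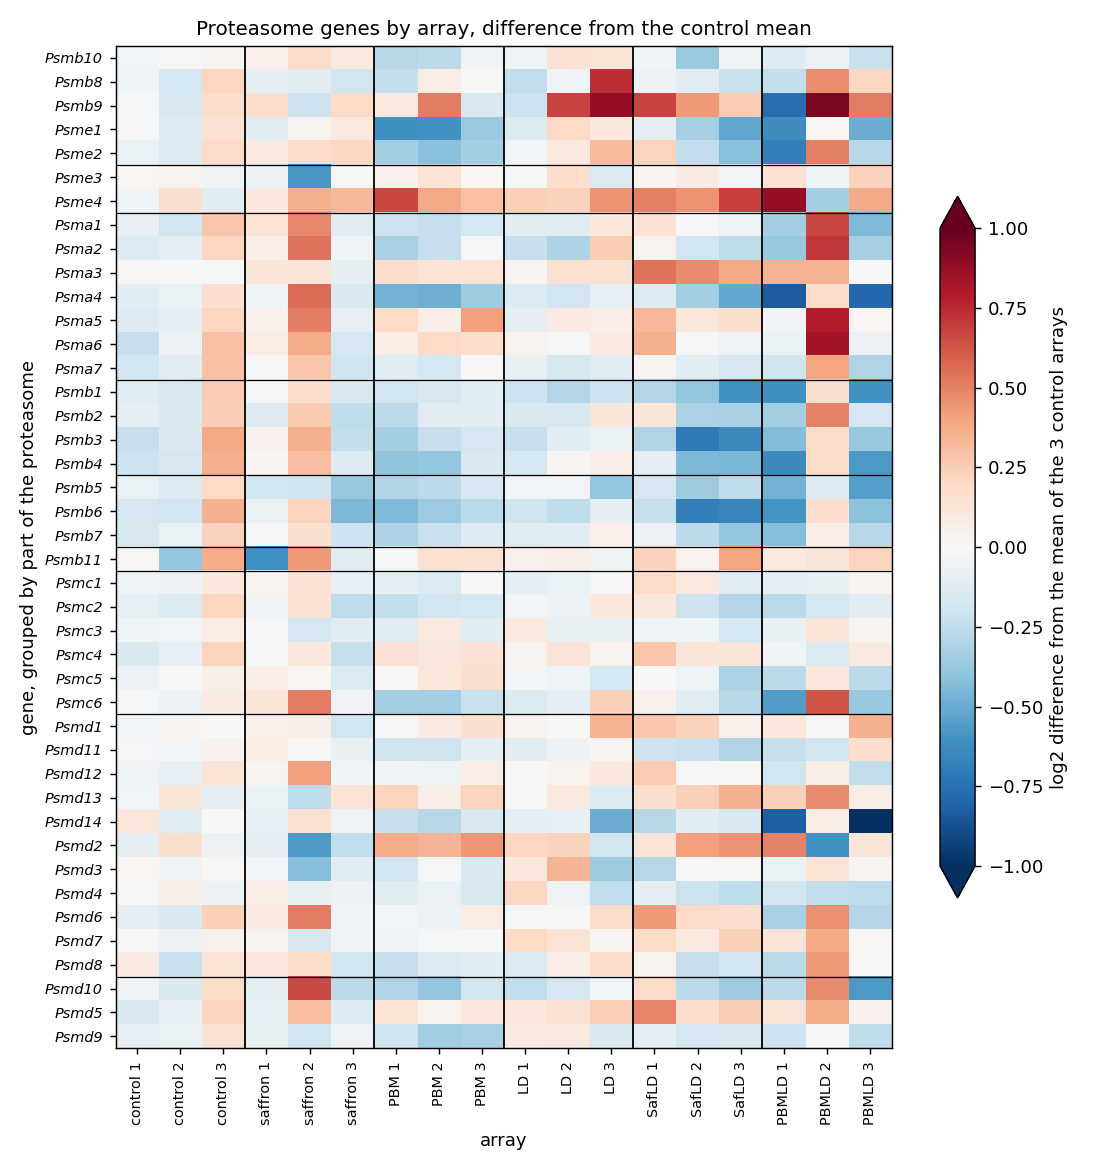
Difference of each proteasome gene (rows, grouped by part of the proteasome) from its mean over the 3 control arrays, for the 18 arrays (columns, grouped by treatment), on the log2 scale with colours that end at 1 in either direction. Control 3, saffron 2 and PBMLD 2 stand out as columns that are warmer than the other arrays of their group, and the beta ring rows Psmb1 to Psmb7 are mostly blue in the PBM and SafLD arrays.

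No proteasome gene passed the test in LD. By limma with Benjamini-Hochberg adjustment over all 29214 probe sets, 0 of the 44 members had an adjusted p below 0.05 in LD against control, where 1.11% of all probe sets did. Likewise 0 members passed in PBMLD against control (0.753% of all probe sets). In SafLD against control 1 member passed (Psma3, higher), which is 2.27% of the members beside 2.8% of all probe sets. The counts at an unadjusted p below 0.05 were 0 members in LD (9.58% of all probe sets), 4 lower in PBMLD (12%), and 3 higher and 4 lower in SafLD (16.9%). The test used in the study's methods, unadjusted, gave 2, 1 and 9 members in these comparisons, and 0 in each once adjusted or once its 2-fold limit was applied. Its share over all probe sets is not given, so these unadjusted counts cannot be set against a background.
The members had a median difference of 0.0063 in LD, of -0.042 in PBMLD and of -0.13 in SafLD, beside -0.019, 0.032 and 0.020 over all probe sets. Over the 42 subunits and activators the medians of 0.0074, -0.042 and -0.12 (LD, PBMLD and SafLD) became 0.071, 0.021 and -0.039 without control 3. In LD the median lay between -0.031 and that value as single arrays were left out, so its sign is not settled. In PBMLD it was -0.20 without PBMLD 2, 0.034 without PBMLD 1 and 0.028 without PBMLD 3, and in SafLD -0.039 without SafLD 3. The members' differences ran from -0.24 to 0.45 in LD, -0.65 to 0.31 in PBMLD and -0.55 to 0.55 in SafLD. In LD, 2 members (Psma3 and Psme4) had all arrays above every control array and 2 (Psmb1 and Psmc3ip) had all below, where 7.54% and 8.88% of all probe sets did. The 95% interval of the difference lay within a 2-fold change either way for 43 of 44 members in each of the 3 light groups, as it did for 94%, 93.4% and 91.4% of all probe sets in LD, PBMLD and SafLD. The exception was Psmb9 in LD and SafLD, and Psmd14 in PBMLD. The plot of differences by gene shows these intervals.

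**Figure D2:**
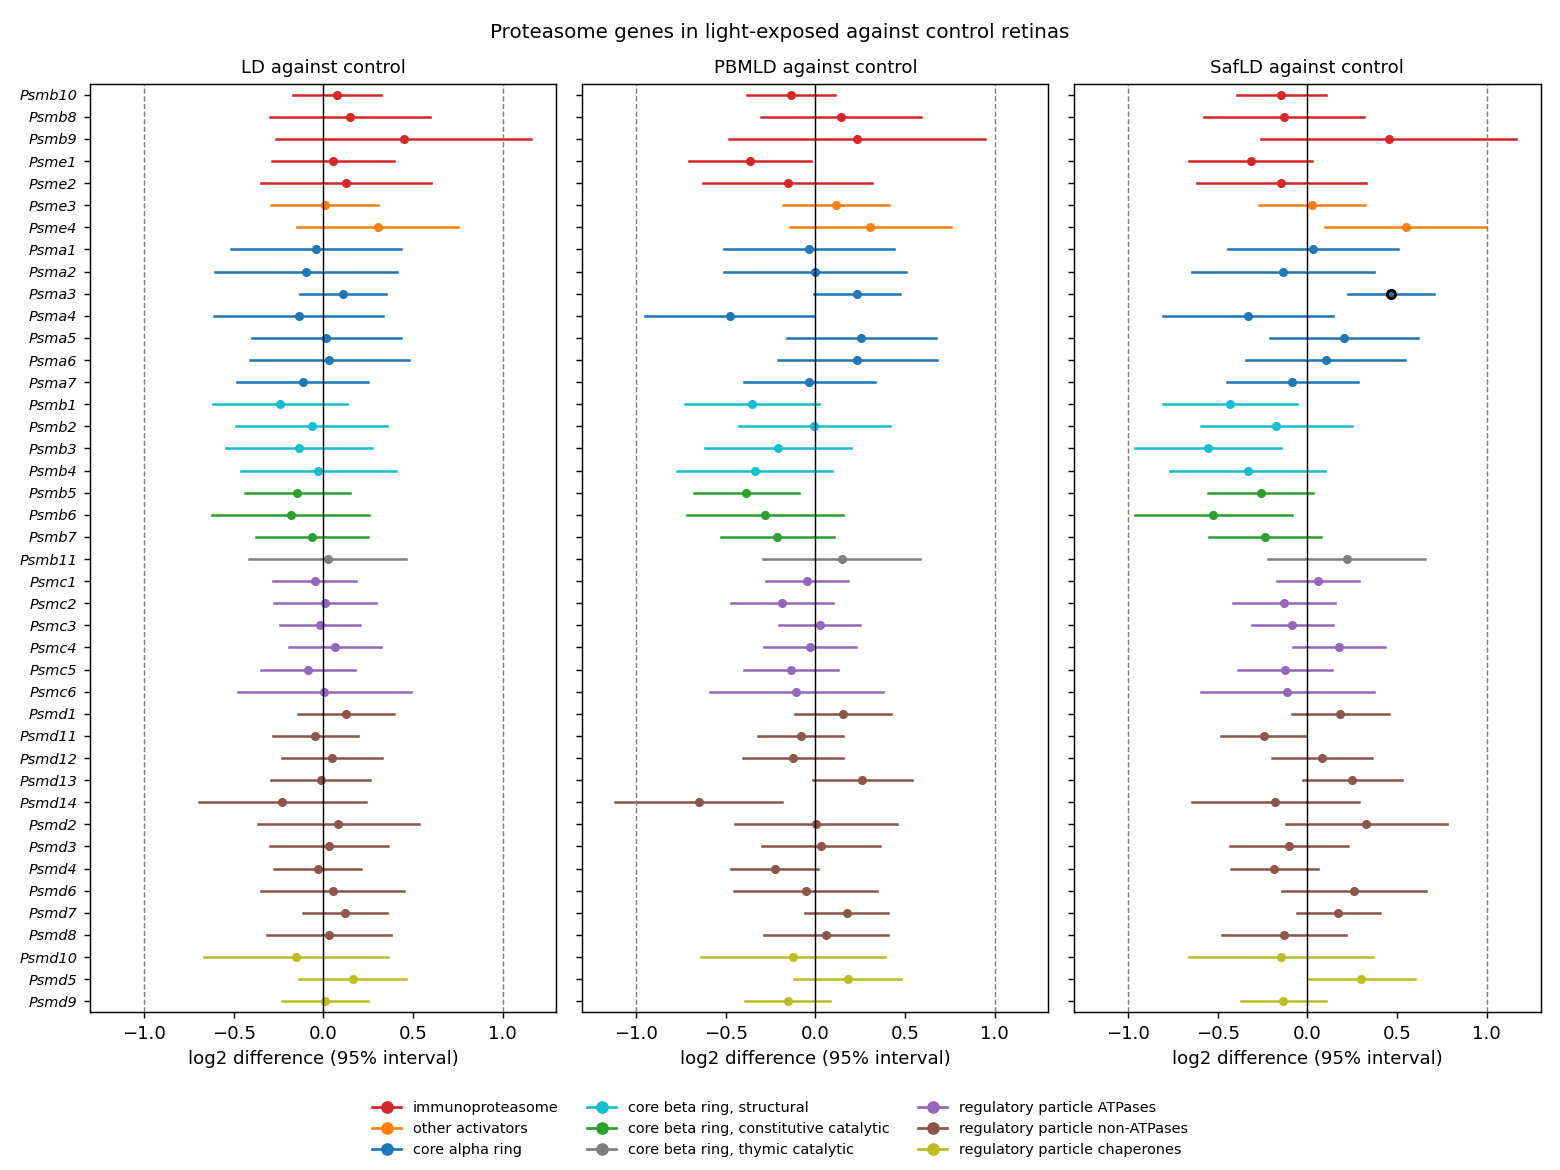
Difference from control on the log2 scale (x axis, points) with 95% intervals (lines) for the 42 proteasome genes in LD, PBMLD and SafLD, coloured by part of the proteasome, with dashed lines at a 2-fold change. The only point with a black edge, which marks an adjusted p below 0.05, is Psma3 in SafLD at 0.47, and the interval of Psmb9 reaches past 2-fold in LD and SafLD.

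The 3 interferon-inducible catalytic subunits had no call in any light group. Psmb9, which takes the place of Psmb6 in the immunoproteasome, moved furthest of the 3 in LD and SafLD. It read 6.44, 6.29 and 6.63 in control, 6.24, 7.13 and 7.33 in LD, 7.13, 6.88 and 6.71 in SafLD and 5.69, 7.39 and 6.97 in PBMLD. In LD 2 of 3 arrays lay above every control and the third lay below every control, whereas all 3 SafLD arrays lay above every control and PBMLD spanned the whole range of the series. The difference was 0.45 ± 0.34 in LD, a fold of 1.36 (95% interval of the log2 difference -0.26 to 1.16, adjusted p = 0.753 by limma). The SafLD difference had the same size (0.45 ± 0.34, adjusted p = 0.546). For PBMLD it was 0.23 ± 0.34 (adjusted p = 0.844), which became -0.12 without PBMLD 2. Without light, Psmb9 read 6.63, 6.25 and 6.65 after saffron and 6.56, 6.97 and 6.30 after PBM, which overlapped control.
Psmb8, the counterpart of Psmb5, read 5.98, 5.85 and 6.24 in control and 5.77, 5.98 and 6.76 in LD. A single LD array was high, and without LD 3 the difference of 0.15 ± 0.21 (adjusted p = 0.904) turned to -0.14. It read 5.97, 5.91 and 5.80 in SafLD and 5.78, 6.49 and 6.23 in PBMLD, with differences of -0.13 ± 0.21 and 0.14 ± 0.21. Neither group separated from control. The saffron arrays read 5.93, 5.91 and 5.84 and the PBM arrays 5.79, 6.10 and 6.02.
Psmb10, the counterpart of Psmb7, varied least. It read 6.62, 6.65 and 6.67 in control and 6.61, 6.79 and 6.77 in LD, a difference of 0.076 ± 0.12 (95% interval -0.17 to 0.32, adjusted p = 0.915). It read 6.61, 6.28 and 6.61 in SafLD, 6.52, 6.59 and 6.42 in PBMLD and 6.37, 6.39 and 6.61 in PBM. All arrays of these 3 groups lay below every control array, with differences of -0.14, -0.14 and -0.19, none called. Saffron alone read 6.70, 6.83 and 6.73, above every control array.

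The PA28 subunits Psme1 and Psme2, which together form the cap that interferon-gamma induces, had no call in LD either. Psme1 read 9.79, 9.67 and 9.94 in control and 9.66, 9.997 and 9.90 in LD, a difference of 0.054 ± 0.16 (95% interval -0.29 to 0.40, adjusted p = 0.963). Psme2 read 9.46, 9.40 and 9.72 in control and 9.50, 9.62 and 9.84 in LD, a difference of 0.13 ± 0.22 (95% interval -0.34 to 0.60, adjusted p = 0.931). The LD arrays thus overlapped the controls for both genes, and a 2-fold rise lay outside both intervals.
The lowest group means of PA28 were those of PBM without light. Psme1 read 9.19, 9.20 and 9.43 there and 9.69, 9.83 and 9.89 after saffron, and PBM was -0.53 ± 0.16 from control (adjusted p = 0.276). All 3 PBM arrays lay below every control array. Psme2 read 9.19, 9.11 and 9.18 after PBM and 9.61, 9.72 and 9.73 after saffron, and its PBM difference was -0.36 ± 0.22 (adjusted p = 0.62), again with no overlap with control. Weighting arrays by their reliability gave Psme1 in PBM an adjusted p of 0.0389, at a difference of -0.50.
In the pretreated light groups PA28 scattered widely. Psme1 read 9.71, 9.46 and 9.28 in SafLD and 9.18, 9.82 and 9.31 in PBMLD, and Psme2 read 9.75, 9.28 and 9.11 and 8.84, 10.03 and 9.25. The differences from control were -0.32 and -0.37 for Psme1 and -0.15 and -0.15 for Psme2, none of them called. PBMLD 2 lay above and PBMLD 1 below most controls for both genes, and without PBMLD 1 the PBMLD difference of Psme2 was 0.11. Both genes have a second, dimmer probe set whose target could be a near copy, so the split of signal is uncertain. The second probe sets gave -0.28 for Psme1 and -0.25 for Psme2 in PBM, and 0.046 and 0.21 in LD.

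**Figure D3:**
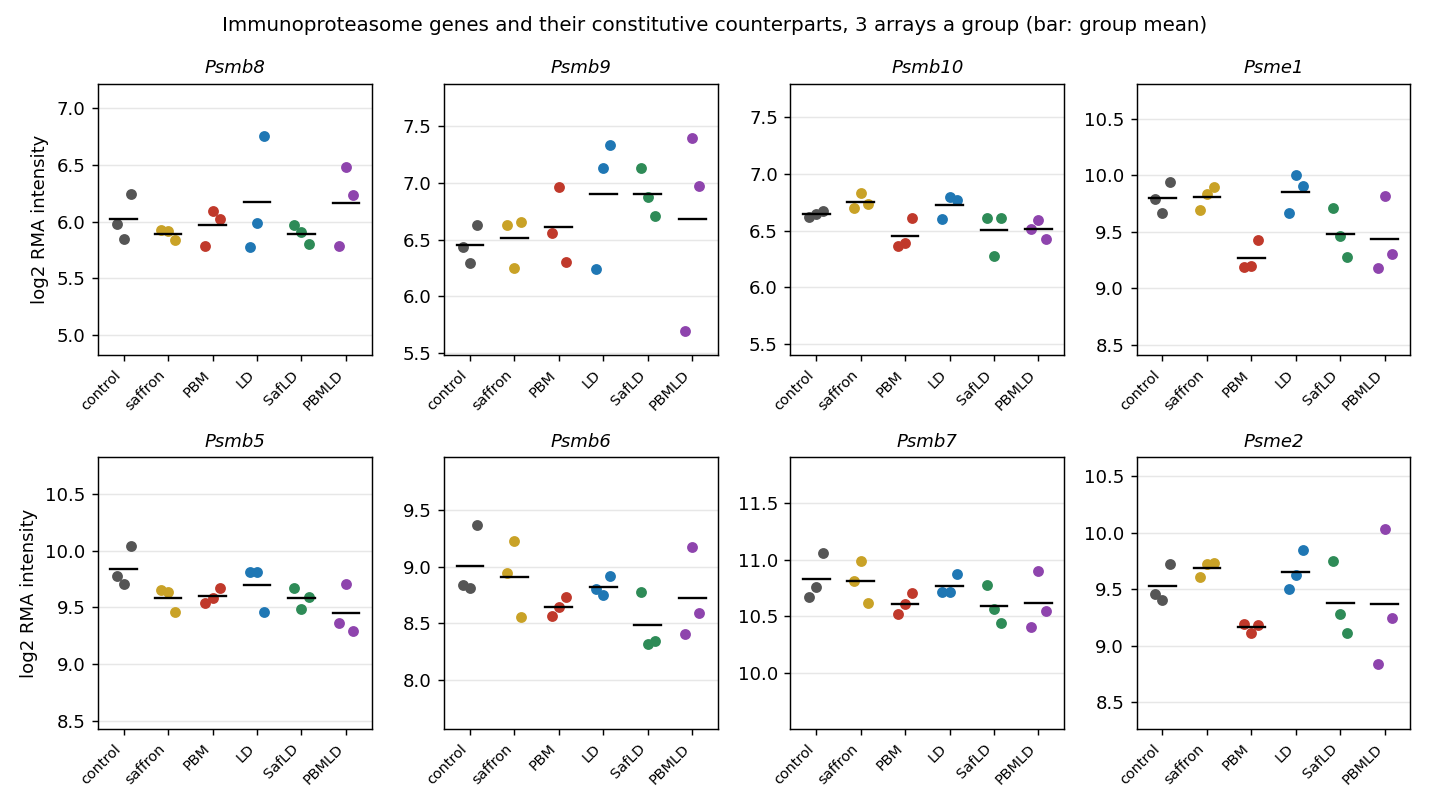
Log2 RMA intensity (y axis, with the same span in each panel) of the 5 immunoproteasome genes and of Psmb5, Psmb6 and Psmb7 in the 6 groups (x axis), with a point for each of the 3 arrays of a group and a bar at the group mean. LD 1 sits apart from LD 2 and LD 3 for Psmb9, and the 3 PBM points of Psme1 and Psme2 lie below all 3 control points.

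As a group, the 5 immunoproteasome genes had a median difference of 0.13 in LD, with 5 of 5 above 0, and of -0.022 for the 34 constitutive genes. Leaving out single arrays moved the immunoproteasome median between 0.034 (without LD 3) and 0.22 (without control 3). In SafLD 1 of 5 was above 0 (median -0.14), and in PBMLD 2 of 5 (median -0.14), where leaving out PBMLD 1 gave 0.11. The mean of the 5 genes less the mean of the 34, each relative to control, gave 0.044, -0.044 and -0.00085 on the control arrays and -0.091, 0.24 and 0.44 on the LD arrays. It gave 0.085, -0.030 and -0.047 in SafLD and -0.26, 0.16 and 0.17 in PBMLD. LD 2 and LD 3 lay above every control array, LD 1 lay below, and SafLD lay around 0. The group mean was 0.20 ± 0.27 (SD) in LD and is a description with no test.
Each inducible catalytic subunit can also be set against the one it replaces, as the change of the first less the change of the second. For Psmb9 less Psmb6 the control arrays gave 0.15, 0.032 and -0.18, the LD arrays -0.016, 0.94 and 0.97, the SafLD arrays 0.91, 1.11 and 0.91 and the PBMLD arrays -0.16, 0.77 and 0.93. PBM without light gave 0.54, 0.88 and 0.12 and saffron 0.24, -0.43 and 0.65. All 3 SafLD arrays lay above every control, through Psmb9 (0.45) and Psmb6 (-0.52) together. For Psmb8 less Psmb5 the LD arrays gave -0.23, -0.012 and 1.12 and the PBMLD arrays 0.23, 0.59 and 0.76, against 0.025, -0.042 and 0.017 in control. The SafLD arrays gave 0.11, 0.24 and 0.032, the saffron arrays 0.090, 0.093 and 0.19 and the PBM arrays 0.068, 0.33 and 0.17, so all arrays of these groups and of PBMLD lay above every control, with or without light. For Psmb10 less Psmb7 the LD arrays gave 0.077, 0.26 and 0.075 and the control arrays 0.13, 0.068 and -0.20, which overlapped.

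Several interferon-response genes rose in LD, and some of the genes called lie beside immunoproteasome genes on the chromosome. Of 18 measured genes of interferon signalling, 6 rose in LD and 0 fell: Gbp2, a guanylate-binding GTPase (3.75 ± 0.58, adjusted p = 0.00215), Gbp5, Ifit3, the antiviral enzyme Rsad2, and the transcription factors Irf1 (1.35 ± 0.24, adjusted p = 0.00739) and Irf9 (2.33 ± 0.23, adjusted p = 2.95e-05). In SafLD 3 rose (Gbp2, Irf9 and the kinase Jak2) and in PBMLD 1 rose (Irf9, 1.31 ± 0.23). The calls of Irf9 and Gbp2 in LD held without any single array, whereas Irf1 had an adjusted p of 0.0595 without LD 3, and Gbp5, Ifit3 and Rsad2 each lost theirs without any 1 of 5 of the 6 arrays compared, LD 1 being the exception. In SafLD the call of Gbp2 was lost without control 1, SafLD 2 or SafLD 3 and that of Jak2 without any 1 of 4 arrays, and in PBMLD that of Irf9 without control 3 (adjusted p = 0.0575).
Gbp2 read 5.53, 5.34 and 5.83 in control, 7.66, 9.90 and 10.39 in LD, 8.01, 8.38 and 8.77 in SafLD and 5.39, 7.89 and 7.51 in PBMLD. LD 1 and PBMLD 1 were the lowest of their groups, as they were for Psmb9.
In the RefSeq order the genes Tap2, Psmb8, Tap1 and Psmb9 lie next to each other on chromosome 20, and the Tap1 and Psmb9 starts are 456 bases apart. Tap1, a subunit of the peptide transporter, read 5.38, 5.43 and 6.33 in control, 6.10, 7.74 and 7.17 in LD, 6.88, 6.80 and 6.99 in SafLD and 6.01, 6.44 and 6.44 in PBMLD. It rose by 1.29 ± 0.30 in LD (adjusted p = 0.0494) and by 1.18 ± 0.30 in SafLD (adjusted p = 0.0468). The LD call lay at the threshold, with an adjusted p of 0.000664 to 0.253 as single arrays were left out (lost without control 1, control 2, LD 2 or LD 3), and the SafLD call was kept only without control 3. The LD differences along this cluster were 0.10 for Tap2, 0.15 for Psmb8, 1.29 for Tap1 and 0.45 for Psmb9. So of these 4 neighbours Tap1 alone was called, and whether it moved more than Psmb9 was not tested.
On chromosome 15, Psme1, Psme2 and Irf9 lie close together with Emc9 and Rnf31 between them. Irf9 rose to 8.88, 9.72 and 9.76 in LD from 7.12, 7.35 and 6.91 in control, a fold of 5.02, while Psme1 and Psme2 differed by 0.054 and 0.13. Of 8 measured peptide-loading genes, Tap1 was called in LD, and Tap1 and Erap1, the peptidase that trims peptides in the endoplasmic reticulum (0.72 ± 0.17, adjusted p = 0.0279, lost without any single array), in SafLD. B2m, the light chain of class I molecules, read 11.13, 11.67 and 12.18 in LD and 11.09, 10.84 and 11.25 in control and was not called (adjusted p = 0.526).

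**Figure D4:**
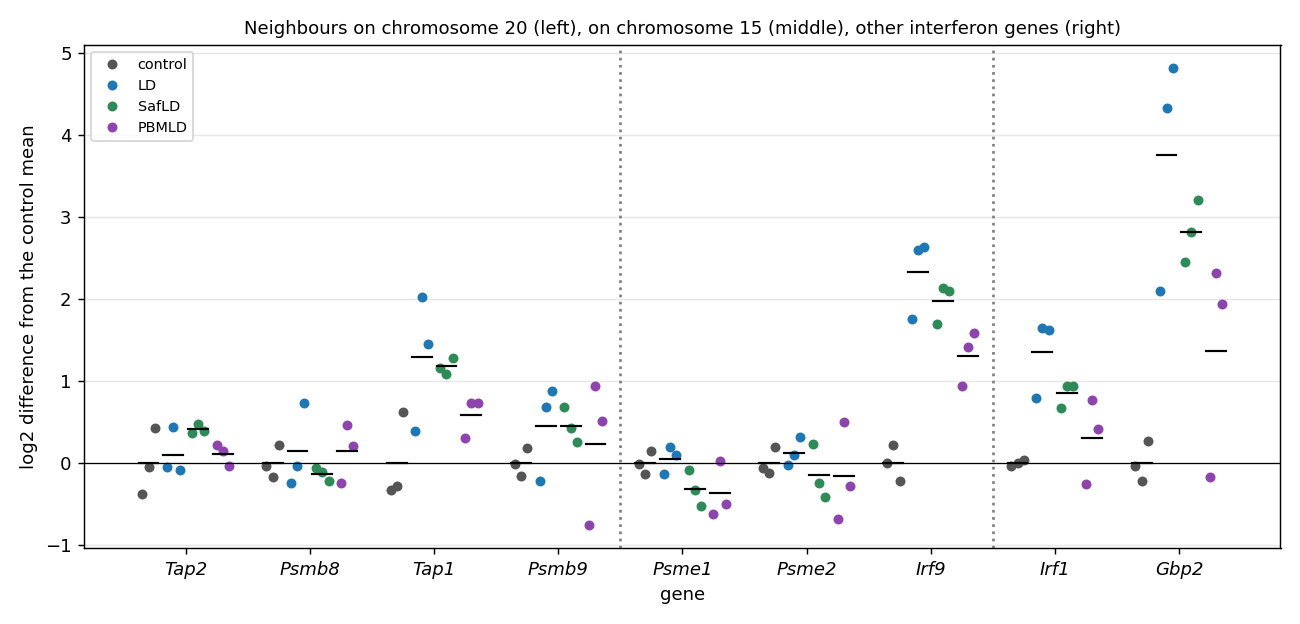
Difference from the control mean on the log2 scale (y axis) for 4 neighbouring genes on chromosome 20, 3 nearby genes on chromosome 15 and 2 other interferon-response genes (x axis), with a point per array and a bar at each group mean. The immunoproteasome genes stay within 1 of the control mean on every array, while Tap1, Irf9, Irf1 and Gbp2 lie above it in all LD and SafLD arrays.

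The constitutive catalytic subunits Psmb5, Psmb6 and Psmb7 were not called in any light group. Psmb5, the chymotrypsin-like site, read 9.77, 9.71 and 10.04 in control, 9.82, 9.81 and 9.46 in LD, 9.67, 9.48 and 9.59 in SafLD and 9.36, 9.71 and 9.29 in PBMLD. Its differences were -0.15 ± 0.14, -0.26 ± 0.14 and -0.39 ± 0.14 (adjusted p = 0.827, 0.36 and 0.262). The SafLD arrays lay below every control, as did the saffron arrays (9.66, 9.64 and 9.46) and the PBM arrays (9.54, 9.58 and 9.67).
Psmb6, the caspase-like site, read 8.84, 8.81 and 9.36 in control, 8.81, 8.75 and 8.91 in LD, 8.78, 8.32 and 8.34 in SafLD and 8.40, 9.17 and 8.59 in PBMLD. In SafLD it was -0.52 ± 0.21 (adjusted p = 0.198), with all 3 arrays below every control. Its second probe set gave -0.46. In LD it was -0.18 ± 0.21, with overlap. Without light it read 8.94, 9.23 and 8.56 after saffron and 8.56, 8.64 and 8.73 after PBM.
Psmb7, the trypsin-like site, read 10.67, 10.76 and 11.06 in control, 10.71, 10.71 and 10.88 in LD, 10.77, 10.57 and 10.44 in SafLD and 10.40, 10.90 and 10.55 in PBMLD, with differences of -0.061, -0.24 and -0.21. After saffron alone it read 10.81, 10.99 and 10.62, and after PBM alone 10.52, 10.61 and 10.70. Control 3 was the highest control for all 3 catalytic subunits.

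Across the beta ring (Psmb1 to Psmb7), the mean differences lay below 0 for 7 of 7 genes in each of LD, PBMLD, SafLD and PBM, though none was called in any of them (0.154% of all probe sets were called in PBM). The medians were -0.13 in LD, -0.28 in PBMLD, -0.33 in SafLD and -0.24 in PBM, beside -0.021 after saffron alone. These comparisons share the control arrays, and the ring averaged -0.15, -0.14 and 0.29 on control 1, 2 and 3. Without control 3 the medians were 0.052 in LD (3 of 7 below 0), -0.10 in PBMLD (6 of 7), -0.16 in SafLD (7 of 7) and -0.10 in PBM (7 of 7). Without PBMLD 2 the PBMLD median was -0.51. With the values rescaled by median centring, quantile normalization or cyclic loess, SafLD and PBM kept 7 of 7 below 0, while LD had 6 of 7 under cyclic loess and PBMLD 6 of 7 under quantile normalization and cyclic loess.
SafLD had the lowest group mean of the beta ring. Psmb3, a structural subunit, read 8.71, 8.30 and 8.36 there against 8.78, 8.86 and 9.39 in control (-0.55 ± 0.19, adjusted p = 0.145). Psmb1, also structural, read 9.67, 9.57 and 9.36 against 9.86, 9.81 and 10.22 (-0.43 ± 0.18, adjusted p = 0.219). For both, all SafLD arrays lay below every control. Of all members, 11 lay lower with no overlap in SafLD and 6 higher, where 11.9% and 13.9% of all probe sets did. With arrays weighted by reliability, Psmb3 and Psmb6 had adjusted p-values of 0.0277 and 0.0369 in SafLD.

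**Figure D5:**
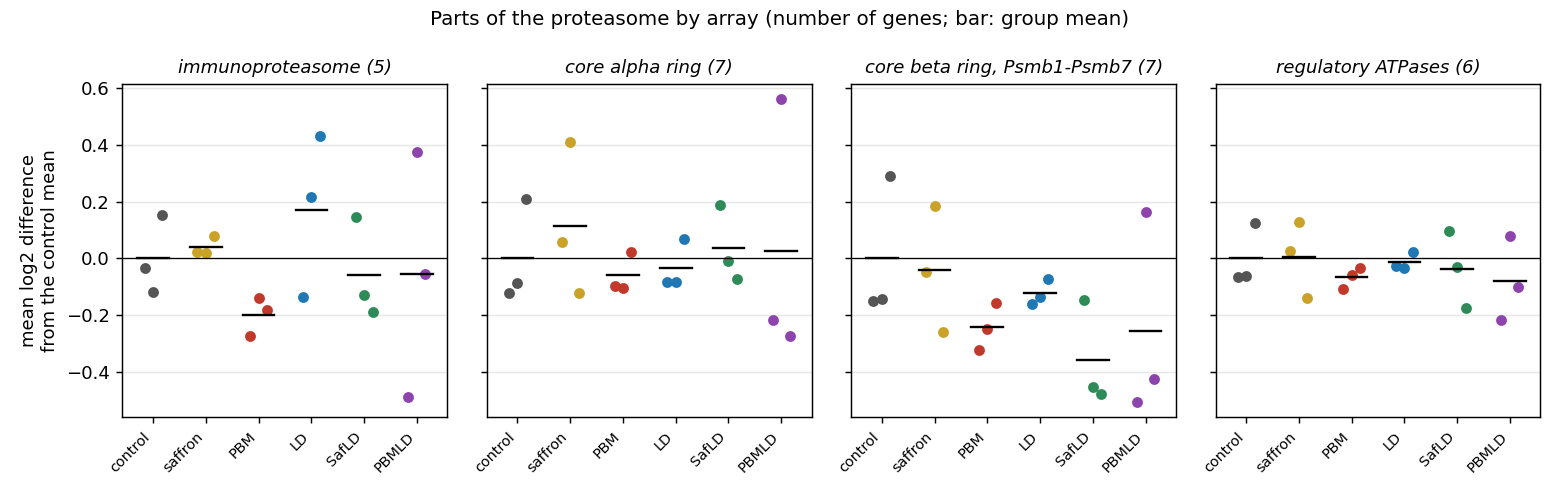
Mean log2 difference from control (y axis) of 4 parts of the proteasome on each array of the 6 groups (x axis), with a bar at the group mean and the number of genes in the panel title. Control 3 lies above control 1 and 2 in all 4 panels, PBMLD 2 lies far above PBMLD 1 and 3 in the alpha and beta rings, and the LD arrays of the beta ring lie within the range of the controls or just below it.

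Of the 7 alpha ring genes, Psma3 was higher in SafLD and the other 6 were not called. Psma3, which helps to gate the core, read 10.37, 10.36 and 10.34 in control, 10.90, 10.83 and 10.73 in SafLD, 10.38, 10.51 and 10.51 in LD and 10.70, 10.71 and 10.35 in PBMLD. The SafLD arrays lay above all other arrays of the series. The difference from control was 0.47 ± 0.11 (fold 1.38, 95% interval 0.23 to 0.71, adjusted p = 0.0377). The call was lost when any 1 of the 6 control and SafLD arrays was left out (adjusted p = 0.0855 to 0.114), although the difference then stayed between 0.43 and 0.51. Of the arrays outside the comparison, leaving out any single PBM array also lost the call. It was kept without any single saffron, LD or PBMLD array. Against LD the SafLD difference was 0.35 ± 0.11 (adjusted p = 0.277), and after saffron alone Psma3 read 10.48, 10.48 and 10.26. After PBM alone it read 10.52, 10.49 and 10.48.
RefSeq lists Psma3l as another name of Psma3, and the platform table gives this probe set both names. A second probe set, named Psma3l alone, differed by 0.23 in SafLD (adjusted p = 0.515). Signal of near copies of Psma3 could be split between these probe sets. With both averaged the difference was 0.35 and no longer called (adjusted p = 0.175).
The ring's median was -0.041 in LD, while it was -0.0021 in PBMLD and 0.032 in SafLD. As single arrays were left out it ran from -0.14 (without control 2) to 0.096 (without control 3) in LD and from -0.25 (without PBMLD 2) to 0.17 (without PBMLD 1) in PBMLD. In SafLD it ran from -0.066 (without control 2) to 0.17 (without control 3), so its direction held in no light group. The other alpha subunits had LD differences from -0.14 (Psma4) to 0.033 (Psma6). Their 3 PBMLD arrays disagreed: Psma5 read 8.24, 9.07 and 8.30 and Psma6 9.57, 10.48 and 9.58, with PBMLD 2 the highest array of the series for both.

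The regulatory particle had small differences in LD. The 6 ATPases (Psmc1 to Psmc6), which unfold the substrate, differed by -0.085 to 0.065 in LD, with 3 above and 3 below 0. In PBMLD they differed by -0.18 to 0.023 and in SafLD by -0.13 to 0.18. The 11 non-ATPase subunits differed by -0.23 to 0.13, with 7 above and 4 below 0, by -0.65 to 0.26 in PBMLD and by -0.24 to 0.33 in SafLD. The chaperones Psmd5, Psmd9 and Psmd10, which assemble its base, differed by 0.16, 0.0098 and -0.15. None of these regulatory particle genes was called in LD, PBMLD or SafLD.
Without array weights, whether any member was called in PBMLD depended on a single array. Psmd14, the enzyme that removes ubiquitin chains at the entrance, read 9.73, 9.51 and 9.62 in control, 9.52, 9.53 and 9.12 in LD, 9.34, 9.51 and 9.47 in SafLD and 8.80, 9.69 and 8.40 in PBMLD. PBMLD 2 lay within the control range and the other PBMLD arrays below every other array of the series. The difference was -0.65 ± 0.22 with all arrays (adjusted p = 0.231) and -1.02 without PBMLD 2 (adjusted p = 0.00232). Without that array Psma4, an alpha subunit, also passed (-0.81, adjusted p = 0.0283), as did Psmb1 (-0.61, adjusted p = 0.0366). Without array weights, the count of members called in PBMLD was thus 0 with PBMLD 2 and 3 without it. With all arrays kept and weighted by reliability, limma called Psma4 (adjusted p = 0.0497) and Psmd14 (adjusted p = 0.00344). The share of all probe sets called without PBMLD 2 or with array weights is not given. Psmd14, Psma4 and Psmb1 were singled out after their values were seen. Of all members, 2 were lower without overlap in PBMLD (Psmb10 and Psmd4, beside 6.52% of all probe sets) and 0 higher (9.07%).
Across the series, Psmd2, a scaffold of the particle, read 10.73, 10.69 and 10.80 after PBM against 10.25, 10.51 and 10.29 in control, the only regulatory subunit whose PBM arrays all lay above control (0.39 ± 0.21, adjusted p = 0.577).

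Of the activators that interferon does not induce, Psme4 (PA200, which favours degradation without ubiquitin and is linked to DNA repair) read higher in every treated group on average. It read 8.74, 8.93 and 8.66 in control, 8.88, 9.14 and 9.10 after saffron, 9.44, 9.16 and 9.08 after PBM, 9.01, 9.01 and 9.22 in LD, 9.28, 9.23 and 9.46 in SafLD and 9.66, 8.43 and 9.16 in PBMLD. The PBM, LD and SafLD arrays lay above every control, and PBMLD 2 was the lowest array of the series. The LD difference was 0.30 ± 0.21, that of SafLD 0.55 ± 0.21 and that of PBMLD 0.31 ± 0.21 (adjusted p = 0.723, 0.191 and 0.611). Leaving out PBMLD 2, an array outside the comparison that shares its estimate of spread, brought SafLD to an adjusted p of 0.0423. With all arrays kept and weighted by reliability, limma gave Psme4 in SafLD a difference of 0.52 (adjusted p = 0.0301).
Psme3 (PA28-gamma, the nuclear relative of Psme1) read 9.71, 9.73 and 9.64 in control, 9.67, 9.87 and 9.56 in LD, 9.72, 9.77 and 9.66 in SafLD and 9.84, 9.66 and 9.92 in PBMLD. It differed by 0.0076, 0.025 and 0.11, all with overlap. It read 9.63, 9.11 and 9.71 after saffron, where saffron 2 stood low, and 9.73, 9.82 and 9.71 after PBM. Psmb11, the catalytic subunit of the thymus, lay below the median probe set in every group and differed by 0.024 in LD. The genes that share only the name, Psmc3ip and Psme3ip1, differed by -0.14 and -0.094 in LD and by -0.35 and -0.30 in SafLD, none called.

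Few other genes of the pathway were called. Of 9 measured proteasome-associated factors 0 was called in LD, and 1 fell in SafLD: Adrm1, a ubiquitin receptor of the regulatory particle (-0.47 ± 0.12, adjusted p = 0.0378), whose call was lost without any single control or SafLD array. Uchl5, the deubiquitinase that docks on Adrm1, read 9.28, 8.99 and 9.09 in control and 8.60, 8.61 and 8.79 in LD, with no overlap (-0.46 ± 0.19, adjusted p = 0.398). Pomp, the maturation factor of the core, differed by 0.17 in LD and -0.57 in SafLD. Of 4 measured genes of ubiquitin and its first enzymes and 9 of shuttle factors and the segregase, 0 was called in LD, PBMLD or SafLD.
Among 6 regulators of proteasome genes, Stat3 rose in all light groups, by 2.03 ± 0.18 in LD, 1.98 ± 0.18 in SafLD and 1.36 ± 0.18 in PBMLD (adjusted p = 1.23e-05, 1.24e-05 and 0.000414). Nfe2l2, which acts through antioxidant response elements, read 8.88, 8.67 and 8.86 in control and 9.42, 9.63 and 10.34 in LD. All its LD arrays lay above control, and its adjusted p lay just outside the threshold (0.99 ± 0.23, adjusted p = 0.0505). Nfe2l1, the factor that restores proteasome genes when the proteasome is inhibited, differed by -0.11.

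Without light, 0 members were called after PBM (0.154% of all probe sets) or after saffron (0%) by limma. At an unadjusted p below 0.05 limma gave 1 higher and 3 lower after PBM (9.96% of all probe sets) and 0 after saffron (4.6%). The methods' t-test, unadjusted, gave 12 and 0, and 0 in both once adjusted. Its share over all probe sets is not given, so the 12 cannot be set against a background. After PBM the members lay low: 15 of 44 had all PBM arrays below every control array, where 11.4% of all probe sets did, and 3 lay above (11.8%). Their median difference was -0.14, against 0.025 over all probe sets. For the 34 constitutive genes the median of -0.14 became -0.049 without control 3. After saffron theirs was 0.0033, and -0.061 without saffron 2. After saffron the members' median was 0.0033, with 1 gene above and 1 below control without overlap (5.19% and 4.85% of all probe sets).
Set against LD, 0 members were called in PBMLD (0.284% of all probe sets) or SafLD (0.308%) by limma. Unadjusted, 1 was lower in PBMLD (11.5% of all probe sets), and 1 was higher and 2 lower in SafLD (9.55%). The methods' t-test, unadjusted, gave 2 and 4, with 0 in both once adjusted, and its share over all probe sets is not given. The smallest p in PBMLD was that of Psme1 (-0.42 ± 0.16, adjusted p = 0.335). Without PBMLD 2, Psmd14 passed at -0.79 (adjusted p = 0.0239). Whether either pretreatment altered the effect of light was tested as an interaction: 0 members passed for PBM (0.00685% of all probe sets) and 0 for saffron (0.14%), with 1 and 0 at an unadjusted p below 0.05 (4.26% and 5.84% of all probe sets). The interaction of Psmb9 was -0.37 ± 0.48 for PBM and -0.052 ± 0.48 for saffron.

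Markers of other cells were read beside the LD results, as means over each list relative to control. Reactive Müller glia genes, such as Gfap, lay at 1.63 to 2.41 in LD, with 8 of 9 called. Microglia and macrophage markers lay at -0.17 to -0.029 (0 of 12 called higher and 1, P2ry12, called lower) and T and NK cell markers at -0.16 to 0.26 (0 of 12 called). T and NK cell markers averaged 4.20 to 4.63 on the LD arrays, below the array medians, and Ifng itself read 2.91, 3.02 and 3.73 in LD and 2.74, 3.02 and 3.05 in control. Lens crystallins and other lens genes varied between LD arrays, at 1.94, -0.23 and 1.80 on LD 1, 2 and 3 against -0.24 to 0.30 in control, with 16 of 16 above 0 on average and 0 called. Pigment epithelium genes lay at 0.28 to 1.26 in LD and -0.52 to 0.54 in control. LD 1, the lowest LD array for Psmb8, Psmb9 and Tap1, was the highest for lens genes. LD 2 was near the controls for lens genes and high for Psmb9 and Tap1. LD 3 was nearly as high as LD 1 for lens genes, yet was the highest LD array for Psmb8 (6.76) and Psmb9 (7.33). In PBMLD the lens genes averaged 1.11, 0.074 and 0.16, and PBMLD 1 was the lowest for the mean of the 5 immunoproteasome genes. Saffron 3 was the lowest of its group for lens genes and the highest for that mean. Control 3 and SafLD 1 were the highest of their groups for both, and PBM 1 was the lowest of its group for both. Over the 18 interferon signalling genes LD 1, 2 and 3 averaged 0.49, 1.53 and 1.66, so LD 1 was the lowest there as well. The 6 retinal markers averaged -0.13, -0.20 and -0.68 in LD and -0.098, -0.50 and -0.088 in PBMLD, and the arrays lowest in these markers (LD 3 and PBMLD 2) were the highest of their groups for the mean of the 5 immunoproteasome genes. Control 3 was likewise the lowest control in these markers (0.023, 0.041 and -0.064) and the highest for that mean. The order was not the same in SafLD, at -0.29, -0.21 and -0.33, or after saffron, at -0.063, -0.27 and -0.13. It also differed after PBM, at -0.093, -0.070 and -0.043. In these groups the array lowest in retinal markers (SafLD 3, saffron 2 and PBM 1) was also the lowest for that mean. Saffron 2 and saffron 1 were close for it, at 0.019 and 0.022. The part of other tissue or of retinal content in these values was not tested.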

How the data were processed

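Retinal RNA was hybridised to Affymetrix rat Gene 1.0 ST arrays, 3 in each of 6 groups, grouped by their labels. Each deposited value is the log2 intensity of a probe set, which the authors background-corrected, normalized between arrays and summarized by RMA (Affymetrix Expression Console 1.1.2800.19935 in the submitters' processing notes). Neither labels, methods nor file header give a genome build. RMA compresses small differences and scales all arrays to 1 distribution, so a shift common to all genes cannot be seen. Probe sets were named through the platform table when it gave 1 symbol (15310 of 29214, while 323 had several and 13581 none) or, for proteasome genes, several that RefSeq lists as names of 1 gene, as for Psma3 and Psma3l, and the brightest was used for each gene.

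All 18 arrays were fitted with 6 group means in limma 3.58.1 (R 4.3.3; 12 residual degrees of freedom), with moderated variances and Benjamini-Hochberg adjustment over 29214 probe sets. A call is an adjusted p below 0.05. The methods' t-test with its 2-fold limit, other scalings, array weights and each array left out were alternatives. Values by array are given for the 5 immunoproteasome genes, their partners Psmb5, Psmb6 and Psmb7, the activators Psme3 and Psme4 and members called, with at most 12 per comparison of a light group with control and 5 per other comparison. Other members appear by range and count. Genes of other lists are named where called, or where they belong to the interferon or peptide-loading lists. Psma4, Psma5, Psma6, Psmb1, Psmb3, Psmd2, Psmd14, Psmb11, Uchl5, Pomp, Nfe2l1 and Nfe2l2 fall outside this rule and were chosen after their values were seen. The script was tested on simulated data. Members and lists were chosen with earlier results of these data known. No batch is named in the labels. Promoters came from RefSeq tables (39 of 44 members matched).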

Additional observations from a re-analysis of the deposited data

How the results depend on the processing

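The count of members called was the result most open to the processing. In SafLD the main count of 1 became 0 with the methods' t-test adjusted by Benjamini-Hochberg, with only the groups compared in the fit, with the mean of all probe sets of a gene, with a fold limit added, with the unadjusted t-test and fold limit, and, as a range, 0 to 0 when each control or SafLD array was left out. With array weights it was 4. In PBMLD array weights gave 2 members, and leaving out each array gave 0 to 3, the highest without PBMLD 2. In PBMLD against LD array weights gave 1 and leaving out each array 0 to 1, again the highest without PBMLD 2. In PBM array weights gave 1. The share of all probe sets called under array weights or without an array is not given, so these counts have no background beside them. The other 153 recomputed counts stayed as in the main fit. Immunoproteasome minus constitutive genes, against Psmb5, Psmb6 and Psmb7 alone, was 0.076 in PBM (main -0.10), 0.28 in SafLD (main 0.0027) and 0.24 in PBMLD (main 0.021), and as a median of the members -0.088 in SafLD. Leaving out each array, it ran from 0.076 to 0.34 in LD, -0.039 to 0.027 in SafLD, -0.051 to 0.16 in PBMLD, -0.14 to -0.082 in PBM and -0.063 to 0.12 in saffron. The cause of these changes was not tested. Medians of the gene lists without single arrays and after rescaling were added after seeing the data.

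Deviations from the group mean correlated at -0.39 to 0.31 between samples with the same replicate number. Samples with different numbers were not compared, so this cannot settle whether the numbers pair the samples. With the replicate number as a block, 1 member was called in SafLD (Psma3, adjusted p = 0.0484) and 0 in the other comparisons, as without it. With 3 arrays a group, the median SE of a member was 0.17 on the log2 scale. No group had the 4 or more arrays needed to test for outlying samples.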
